A study of Mus musculus with 272 samples.

Results

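The genes described here are the inhibitors and the cyclins that set the passage through the G1 phase of the cell cycle. They are *Cdkn1a*, *Cdkn1b*, *Cdkn1c*, *Cdkn2a*, *Cdkn2b*, *Cdkn2c*, *Rb1*, *Ccnd1*, *Ccnd2* and *Ccnd3*, 10 of the 21938 protein-coding genes that GENCODE M21 places on the 21 assembled chromosomes of the mouse (build mm10). They were taken by gene name, as a group chosen with earlier results of these data known. The study edited loci with Cas9 in muscle stem cells (MuSCs) of living mice and sequenced the repair outcomes, and it mapped the chromatin of these cells beside them. The chromatin libraries are 8, with 2 replicates each of ATAC-seq, which finds open chromatin, and of ChIP-seq for the histone marks H3K4me3, H3K27ac and H3K27me3. All 8 came from GFP+ MuSCs sorted from digested hindlimb muscle of Pax7Cas9 mice, in which Pax7-driven Cre switches on a Cas9-EGFP allele at Rosa26 in cells that express or once expressed *Pax7*. These libraries form 1 group of shared genotype with no other condition to compare, and the ChIP input libraries were not analysed here. Strain, age and sex are not stated for these 8 libraries, and it is not stated whether replicates 1 and 2 came from separate animals, so that the spread between them may be technical.

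D-type cyclins bind the kinases CDK4 and CDK6, which phosphorylate the retinoblastoma protein encoded by *Rb1* and so free the E2F factors that drive entry into S phase. The INK4 inhibitors (*Cdkn2a*, *Cdkn2b*, *Cdkn2c*) bind CDK4 and CDK6 themselves, whereas the Cip/Kip inhibitors (*Cdkn1a*, *Cdkn1b*, *Cdkn1c*) bind whole cyclin-CDK complexes. MuSCs of uninjured adult muscle rest outside the cycle and enter it after injury, and several of these inhibitors are known from work on that resting state. H3K4me3 lies at the starts of genes, H3K27ac at active promoters and enhancers, and H3K27me3 is laid down by the Polycomb machinery at repressed genes, with *Cdkn2a* a textbook target.

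Promoter sequences were taken from RefSeq (GRCm38.p6, the same build as mm10), as 300 bases from 250 before to 50 after a transcription start site. The table used held 10 sequences of 6 of the genes (*Cdkn1a*, *Cdkn1b*, *Cdkn2a*, *Cdkn2b*, *Cdkn2c* and *Ccnd3*), and *Cdkn1c*, *Rb1*, *Ccnd1* and *Ccnd2* had no entry. Shown are both starts of *Cdkn2a*, which carried H3K27me3, the start of *Cdkn2b*, which had the fewest promoter bases under H3K4me3 peaks, and 2 starts of *Ccnd3*, which had the most promoter bases under H3K4me3 peaks, those of a neighbour included. The 2 starts of *Cdkn1a* are shown because only the second lay under peaks, and they were added after these values were seen. All run 5′ to 3′ on the strand of the gene, and capitals mark the GC box, GGGCGG, on either strand.
*Cdkn2a*, Arf start, chr4:89294570-89294869, minus strand: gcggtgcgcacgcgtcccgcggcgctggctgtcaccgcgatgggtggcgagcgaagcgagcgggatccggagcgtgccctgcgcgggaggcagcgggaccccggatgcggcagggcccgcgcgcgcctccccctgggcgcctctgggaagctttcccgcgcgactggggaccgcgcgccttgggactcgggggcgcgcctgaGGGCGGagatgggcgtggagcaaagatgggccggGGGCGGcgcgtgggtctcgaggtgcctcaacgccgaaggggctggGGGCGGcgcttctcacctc
*Cdkn2a*, Ink4a start, chr4:89282143-89282442, minus strand: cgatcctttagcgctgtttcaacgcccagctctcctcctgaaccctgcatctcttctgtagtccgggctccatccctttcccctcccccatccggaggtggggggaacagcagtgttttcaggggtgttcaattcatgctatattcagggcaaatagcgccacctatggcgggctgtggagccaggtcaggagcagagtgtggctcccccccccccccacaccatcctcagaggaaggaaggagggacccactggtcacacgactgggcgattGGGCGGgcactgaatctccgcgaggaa
*Cdkn2b*, chr4:89310983-89311282, minus strand: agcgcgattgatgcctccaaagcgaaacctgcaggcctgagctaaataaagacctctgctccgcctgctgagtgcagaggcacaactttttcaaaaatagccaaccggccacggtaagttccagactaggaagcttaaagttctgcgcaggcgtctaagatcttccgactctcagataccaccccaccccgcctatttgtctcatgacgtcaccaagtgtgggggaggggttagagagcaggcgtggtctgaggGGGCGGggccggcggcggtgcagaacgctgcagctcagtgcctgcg
*Cdkn1a*, the first start, chr17:29090729-29091028, plus strand: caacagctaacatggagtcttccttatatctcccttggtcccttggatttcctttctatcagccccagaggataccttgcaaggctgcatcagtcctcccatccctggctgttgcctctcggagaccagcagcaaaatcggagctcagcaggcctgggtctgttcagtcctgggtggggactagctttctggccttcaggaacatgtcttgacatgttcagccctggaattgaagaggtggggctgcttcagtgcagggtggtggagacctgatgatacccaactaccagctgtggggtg
*Cdkn1a*, the second start, chr17:29093519-29093818, plus strand: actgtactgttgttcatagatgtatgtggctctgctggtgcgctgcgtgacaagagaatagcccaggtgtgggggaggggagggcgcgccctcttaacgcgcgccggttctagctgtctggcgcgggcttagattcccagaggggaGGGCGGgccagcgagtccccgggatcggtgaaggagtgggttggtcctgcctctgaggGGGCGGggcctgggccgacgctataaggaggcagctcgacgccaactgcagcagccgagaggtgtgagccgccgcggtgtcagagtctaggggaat
*Ccnd3*, the first start, chr17:47504801-47505100, plus strand: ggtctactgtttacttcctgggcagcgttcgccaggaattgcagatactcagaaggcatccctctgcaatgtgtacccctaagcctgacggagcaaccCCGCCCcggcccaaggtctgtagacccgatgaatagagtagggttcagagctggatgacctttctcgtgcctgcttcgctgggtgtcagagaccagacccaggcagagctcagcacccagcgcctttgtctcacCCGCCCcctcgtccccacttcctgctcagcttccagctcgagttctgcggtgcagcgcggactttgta
*Ccnd3*, the second start, chr17:47593217-47593516, plus strand: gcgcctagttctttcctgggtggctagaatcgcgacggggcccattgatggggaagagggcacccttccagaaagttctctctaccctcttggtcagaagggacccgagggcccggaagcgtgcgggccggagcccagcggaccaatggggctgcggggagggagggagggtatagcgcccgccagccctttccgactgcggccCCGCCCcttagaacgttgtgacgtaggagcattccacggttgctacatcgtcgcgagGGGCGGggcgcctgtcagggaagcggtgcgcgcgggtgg

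The GC box was found in 8 of the 10 sequences, against 46.2% of 21255 promoters of protein-coding genes of the same length. The 2 without it were the first start of *Cdkn1a* and the second start of *Cdkn2c*. An E-box, CANNTG, the site of MyoD-family and other basic helix-loop-helix factors, was in 4 of 10, and its MyoD type CAGCTG, which is part of the former, in 1, the first start of *Cdkn1a*. Of all promoters, 69.0% held the E-box and 15.6% the MyoD type. A loose form of the E2F consensus, TTTNNCGC with N as any base, matched at both starts of *Cdkn2a* and at no other of the 10. Of all promoters, 6.24% held this loose form. The match read TTTCCCGC at the Arf start and TTTAGCGC at the Ink4a start. The p53 consensus was searched as its 10-base unit, of which a full p53 site holds a pair. The unit was at the first start of *Cdkn1a* alone, where its matches began 73 and 51 bases before the start, against 7.38% of all promoters. The CCAAT box was in 4 of 10 (38.2% of all), and neither the TATA box TATAAA (12.6%) nor the AP-1 site TGANTCA (6.99%) was in any. Each motif was searched on both strands, and a match describes the letters only.

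The starts of a gene differed in their CpG content. At *Cdkn1a*, the first start held 2 CpGs, an observed over expected ratio of 0.0892, and the second held 23, a ratio of 0.786. At *Cdkn2a*, the Arf start held 45 CpGs in 77% GC (ratio 1.04) and the Ink4a start 12 in 60.3% GC (ratio 0.442). At *Ccnd3*, the first start had a ratio of 0.577 and the second of 0.849, and over all promoters the median ratio was 0.567. In each of these 3 genes the start with the higher ratio had the stronger H3K4me3. At *Cdkn2c*, the other gene with 2 sequences, the ratios were 0.823 and 0.553 but both starts lay under the same H3K4me3 peak. This describes 4 genes and is no test.

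Each list comes from 1 library. It gives the position of every MACS2 peak and its fold, that is, how far the signal at the peak's highest point exceeds the background around it. In replicates 1 and 2, the lists held 140937 and 94574 ATAC-seq peaks, 20519 and 18006 H3K4me3 peaks, 24217 and 18589 H3K27ac peaks, and 6080 and 10485 H3K27me3 peaks. H3K27me3 peaks were the weakest, and their lists are not limited by q, which reached 0 on the −log10 scale in replicate 1. Read numbers are not in the lists, so that the depth behind a peak is unknown, and a gene without a listed peak counts as unmarked whatever the reason. All 13 markers of muscle stem cells, *Pax7* and *Myf5* among them, had H3K4me3 at the promoter in both replicates, and 12 had H3K27ac. Of 39 markers of fibro-adipogenic, endothelial and blood cells and of myofibres, 19 had H3K4me3 and 8 had H3K27ac (*Cd55*, *Col15a1*, *Dpt*, *Tek*, *Cd68*, *Actn3*, *Myh1* and *Mylpf*). Of all protein-coding genes, 60.8% had H3K4me3 and 46.6% had H3K27ac there. ATAC-seq peaks lay at all 13 muscle stem cell markers, against 67.8% of all genes. They also lay at 6 of 10 fibro-adipogenic, 8 of 10 endothelial, 7 of 9 blood and 9 of 10 myofibre markers. The part of cells other than muscle stem cells in the results was not tested. In pooled cells, a mark on fewer cells and less of the mark per cell cannot be told apart.

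The promoter of a gene was taken as 3 kb either side of any of its annotated starts, and a gene counted as marked where both replicates listed a peak there. All 10 genes were open and carried H3K4me3. ATAC-seq peaks lay at 10 of 10 promoters, against 67.8% of all protein-coding genes, and H3K4me3 peaks at 10 of 10, against 60.8%. The genes parted by the other marks. H3K27ac was at 6 of 10 (*Cdkn1a*, *Cdkn1b*, *Cdkn2c*, *Rb1*, *Ccnd1* and *Ccnd3*), against 46.6% of all genes, and H3K27me3 at 2 of 10 (*Cdkn2a* and *Ccnd2*), against 4.81%. The same 6 genes made up the active state, with ATAC-seq, H3K4me3 and H3K27ac and no H3K27me3 in either replicate, which 44.4% of all genes showed. *Cdkn2a* and *Ccnd2* had both H3K4me3 and H3K27me3 in the promoter window, a state of 3.85% of all genes. At *Cdkn2a*, replicate 1 listed these marks at different starts, H3K4me3 at the Arf start and H3K27me3 at the Ink4a start. Replicate 2 listed both at each start, with H3K4me3 at the Ink4a start at a fold of 2.81. *Cdkn1c* and *Ccnd2* had H3K4me3 with no H3K27ac in either replicate (11.3% of all genes), and *Cdkn1c* was the only one with neither H3K27ac nor H3K27me3 in either (6.92%). *Cdkn2b* fell between these states, as replicate 1 listed both H3K27ac and H3K27me3 there and replicate 2 neither.

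The H3K27me3 calls rest on weak peaks. If only peaks of −log10 q 1.3 or more are kept, the number stays at 2 of 10 promoters, but at 5 or more it is 0 of 10, and the count with H3K4me3 and H3K27me3 is then 0 as well. The other counts stayed within 1.5 times of these values at every setting tried.

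**Figure D1:**
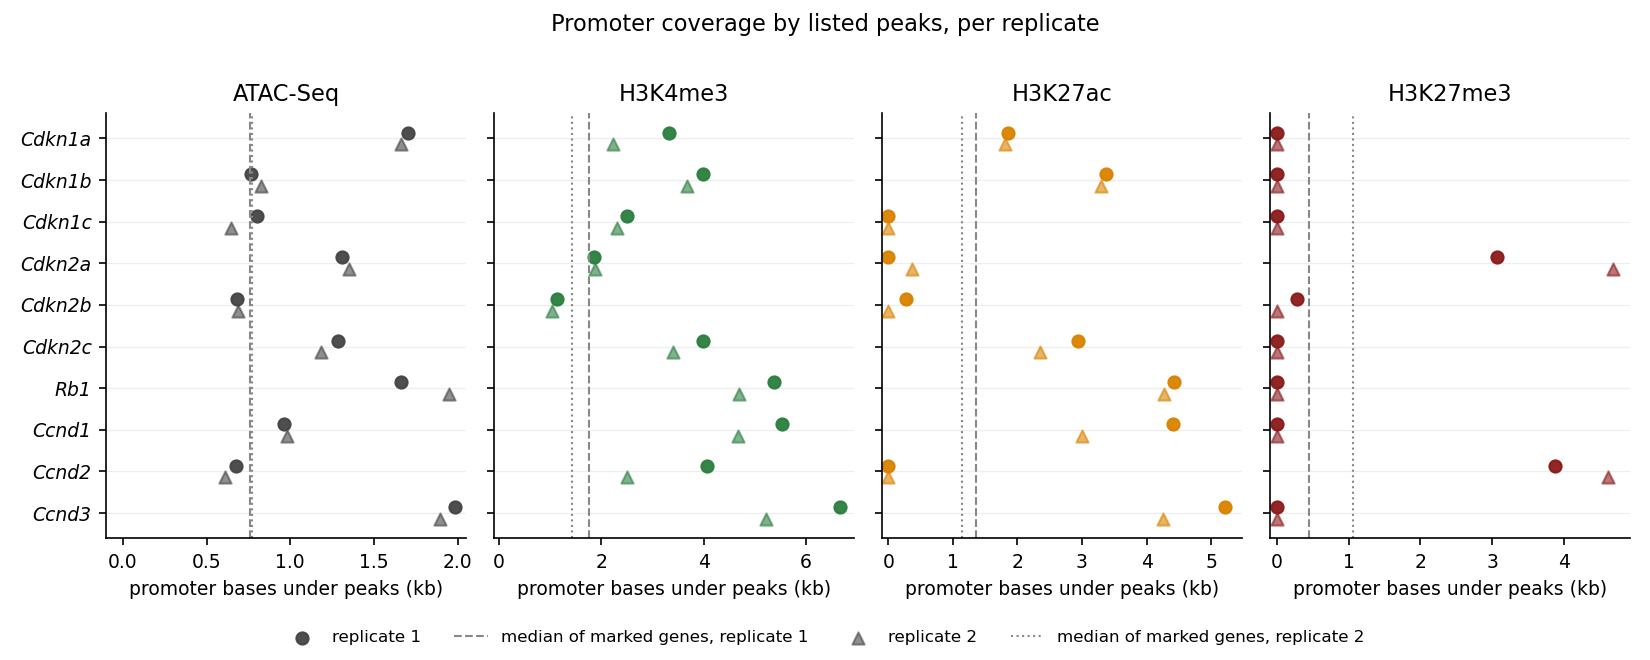
Promoter bases under listed peaks (kb, x axis) for each of the 10 genes (y axis) in 4 panels by feature, with circles for replicate 1, triangles for replicate 2, and lines for the median of all protein-coding genes marked in both replicates. All 10 genes lie above 0 for ATAC-Seq and H3K4me3, 6 have H3K27ac in both replicates, and for H3K27me3 *Cdkn2a* and *Ccnd2* stand apart, at 3065 and 4682 bp and at 3870 and 4612 bp.

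The strength of H3K4me3 was compared within each list, since the strongest promoter peak had a median fold of 24.5 in replicate 1 and 17.6 in replicate 2 over all marked genes and was higher in replicate 1 for all 10 genes here. *Cdkn1a* had the strongest H3K4me3 of the 10, with folds of 47 and 31.1 in replicates 1 and 2 (mean 39 ± 11.3, SD, n = 2), at percentiles 98 and 93 of marked genes. *Cdkn2a* followed at 35 and 25.9, percentiles 81.3 and 81.5. *Ccnd2* had the weakest, with 9.33 and 7.01 (8.17 ± 1.64, SD, n = 2), at percentiles 11.4 and 11.7, and *Cdkn1c* was next at 13.6 and 11.0, percentiles 20.3 and 24.5. The values of *Ccnd2* and *Cdkn1c* did not overlap with each other or with those of the other 8 genes, of which the lowest was 15.8. *Cdkn1b*, with 21.2 and 16.2, and *Cdkn2b*, with 21.2 and 15.8, could not be told apart.

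**Figure D2:**
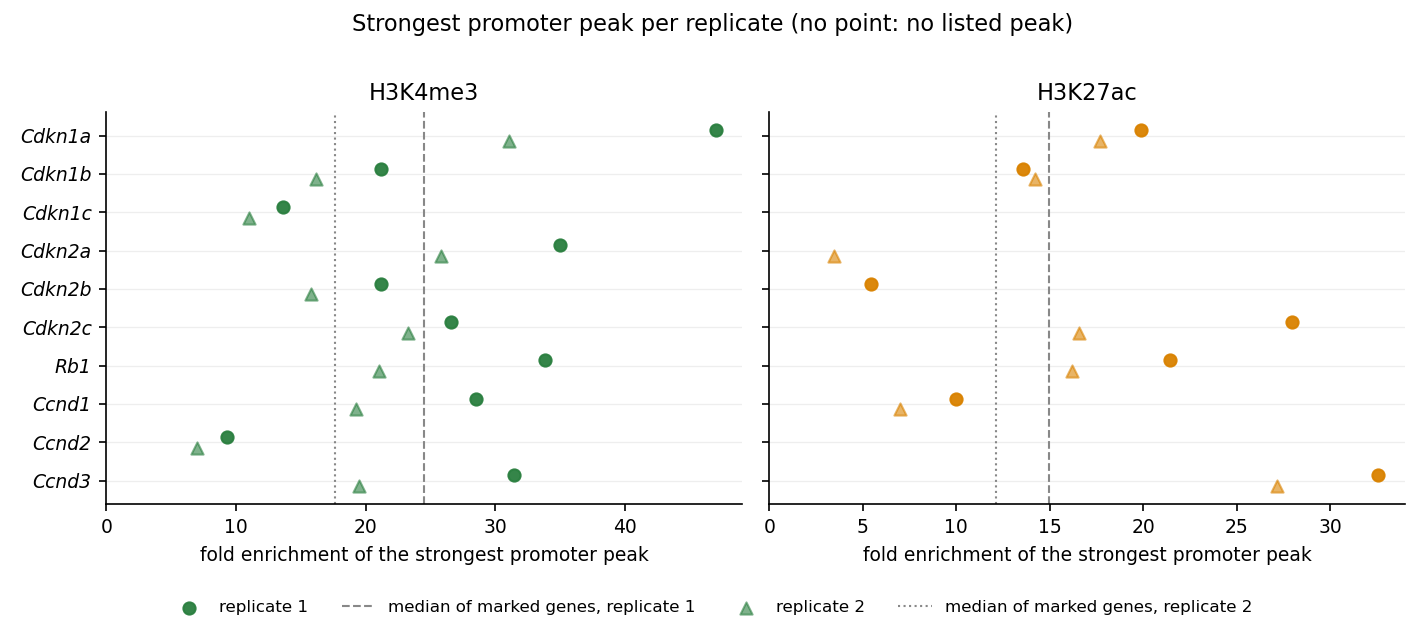
Fold enrichment of the strongest promoter peak (x axis) of H3K4me3 and H3K27ac for each gene (y axis), with circles for replicate 1, triangles for replicate 2 and lines for the median of all marked genes. *Cdkn1a* is highest for H3K4me3 at 47 and 31.1 and *Ccnd2* lowest at 9.33 and 7.01; the high H3K27ac values of *Ccnd3* (32.5 and 27.1) are those of a peak at the start of its neighbour *Taf8*.

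*Cdkn1a* encodes p21, the Cip/Kip inhibitor through which p53 stops the cycle (chr17:29090976-29100727, plus strand, 5 transcripts). Its peaks lay at the second group of starts, 29093769 to 29093781, and not at the first, 29090976 to 29090979. At the second group, H3K4me3 reached the folds given above, and H3K27ac reached 19.9 and 17.7 in a peak of 1862 and 1805 bp. At the first group no peak of any of the 8 lists lay within 1 kb. The nearest H3K4me3 peak was 2491 and 2643 bp away, and the 300 bases printed for that start held no base under a peak. The other transcript start, at 29097900, had weak ATAC-seq and H3K4me3 peaks (folds 4.05 and 3.41) within 1 kb in replicate 1 and none in replicate 2.

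Upstream of *Cdkn1a*, 2 further H3K27ac elements were listed in both replicates and were open in both. The nearer, 12.4 kb before the first start, had an H3K27ac fold of 9.14 in each replicate, and lay within 1 kb of the start of *Trp53cor1*, a long noncoding RNA gene known as lincRNA-p21. H3K4me3 was listed there too, with folds of 6.87 and 4.15. The farther, 28 and 28.2 kb before the start, had H3K27ac folds of 6.13 and 5.49 and no H3K4me3 peak. No H3K27me3 peak lay in the gene or within 50 kb in either replicate. ATAC-seq peaks were many, 29 and 25, at percentiles 91.8 and 94.4 of all genes.

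*Cdkn1b* encodes p27, a Cip/Kip inhibitor known for holding cells in the resting state (chr6:134920401-134925513, plus strand). Its H3K4me3 peak was among the widest of its list rather than among the strongest. It ran for 5797 bp in replicate 1, over nearly the whole gene, and for 3666 bp in replicate 2, at percentiles 99.5 and 98.6 of peak width. H3K27ac covered 3371 and 3301 bp of the promoter, at folds of 13.6 and 14.2, and the promoter was under 1 ATAC-seq peak in each replicate (folds 19.1 and 12.4). Downstream of the gene, about 8 kb from the start, lay a further broad element with H3K27ac folds of 12.1 and 11.5 over 4057 and 3195 bp. H3K4me3 there reached folds of 15.6 and 13.5, and the starts of the long noncoding RNAs *Lockd* and *Gm44238* lie in it or within 1 kb. Of the 6 H3K27ac peaks of each replicate outside promoters around *Cdkn1b*, 5 of replicate 1 and 6 of replicate 2 were shared. The strongest H3K27ac peak of the window, with folds of 32.6 and 27.2, was at the promoter of the neighbour *Gpr19* and not at *Cdkn1b*.

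*Cdkn1c* encodes p57, the third Cip/Kip inhibitor and an imprinted gene (chr7:143458339-143461050, minus strand). It was open, with ATAC-seq folds of 9.59 and 8.36, and H3K4me3 covered 2494 and 2313 bp of its promoter. No H3K27ac peak was listed in the gene or within 50 kb in either replicate. The nearest were just outside this window, 52716 and 52605 bp from the outermost group of starts. H3K27me3 was absent from the lists at the promoter, where the nearest peaks were 40970 and 14982 bp from that group. The window held 2 and 3 H3K27me3 peaks, of which 2 in each replicate lay at the promoter of *Phlda2*, another imprinted gene of the same cluster. A peak list does not separate the parental alleles, so that marks on 1 of them cannot be told from marks on both.

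*Cdkn2a* encodes p16 (Ink4a) and, from an upstream start in another reading frame, Arf, which acts on p53 (chr4:89274471-89294653, minus strand). The 2 starts were marked differently. At the Arf start, 89294653, H3K4me3 had folds of 35 and 25.9 in peaks of 1845 and 1599 bp, and ATAC-seq of 13.2 and 10.6. At the Ink4a start, 89282192, ATAC-seq had folds of 9.87 and 9.56, but H3K4me3 had no peak in replicate 1, with the nearest 11959 bp away, and a peak of fold 2.81 in replicate 2. H3K27me3 lay over the Ink4a start in both replicates, with folds within 1 kb of up to 5.25 and 3.99. At the Arf start the nearest H3K27me3 peak of replicate 1 was 3358 bp away, and replicate 2 had 1 peak there (fold 4.35). Of the 300 bases printed for the Ink4a start, H3K27me3 peaks covered 300 and 177, and of those for the Arf start 0 and 103.

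The H3K27me3 peaks of this locus formed a domain over most of the gene, its Ink4a start included, and beyond its 3′ end. Between the Ink4a start and the Arf start they reached 89291295 in replicate 1. In replicate 2 they reached past the Arf start. Replicate 1 listed 26 peaks and replicate 2 listed 28, covering 9455 and 14524 bp, at percentile 99.6 of all genes by covered bases in both replicates. They ran from 89270606 to 89310407 in replicate 1, which includes 2 isolated peaks at *Cdkn2b*, and from 89267840 to 89295953 in replicate 2. Of the 26 peaks, 18 shared a base with a peak of replicate 2, and of the 28, 16 with one of replicate 1. The folds stayed low, between 2.68 and 5.25 in replicate 1 and between 3.08 and 6.16 in replicate 2. A −log10 q of 1.3 or more was reached by 16 and 24 of the peaks, and of 5 or more by 0 and 4. H3K27ac was listed near the Arf start in replicate 2 alone, as 1 peak of 366 bp and a fold of 3.47, at percentile 3.37 of its list.

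*Cdkn2b* encodes p15, an INK4 inhibitor next to *Cdkn2a* (chr4:89306299-89311039, minus strand), and their windows hold the same H3K27me3 peaks. At its own start, H3K4me3 covered 1127 and 1024 bp of the promoter (mean 1076 ± 72.8 bp, SD, n = 2), the least of the 10 genes. The window of 6001 bp was also the smallest, and the share covered, 18.8% and 17.1%, was not the lowest of the 10. The peak was at percentiles 48.7 and 49.9 of width in its list, with folds of 21.2 and 15.8. In each replicate 1 ATAC-seq peak reached folds of 19.3 and 17.9. The H3K27ac peak of replicate 1 was 273 bp wide with a fold of 5.43. The H3K27me3 peak of replicate 1 was 278 bp wide with a fold of 3.75 and a −log10 q of 0.934. In replicate 2 the nearest H3K27me3 peak ended 15086 bp from the start, so that an H3K27me3 state of *Cdkn2b* was not shared by the replicates.

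**Figure D3:**
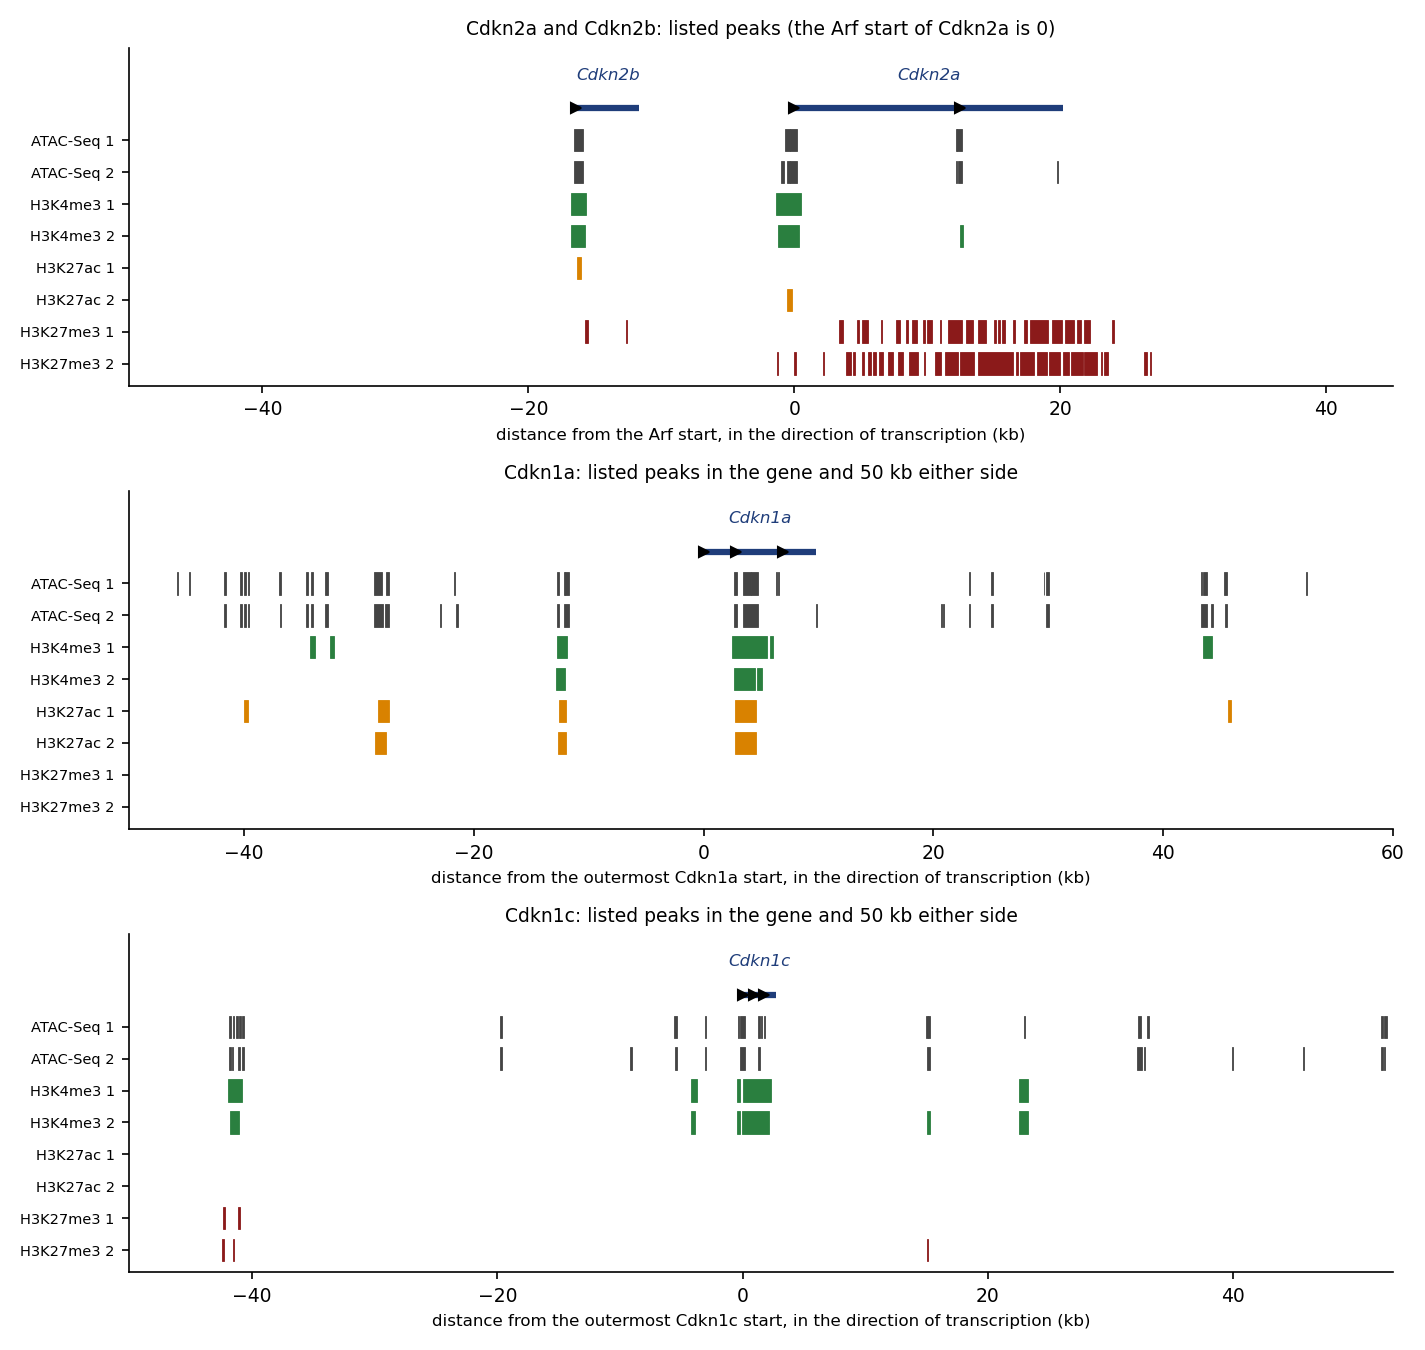
Listed peaks of the 4 features in replicates 1 and 2 (rows) around *Cdkn2a* and *Cdkn2b*, *Cdkn1a* and *Cdkn1c*, by distance in kb along the direction of transcription (x axis), with genes as blue bars and their groups of starts as arrowheads. H3K27me3 lies in separate peaks over most of *Cdkn2a*, its Ink4a start included, in both replicates. The *Cdkn1a* peaks lie at its second start with none at the first, and *Cdkn1c* has H3K4me3 and no H3K27ac.

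*Cdkn2c* encodes p18, the INK4 inhibitor of the group with an active promoter (chr4:109660876-109667189, minus strand). H3K4me3 formed 1 peak of 3981 and 3407 bp over both of its starts, at folds of 26.6 and 23.3. H3K27ac reached 28 and 16.6 and covered 2934 and 2352 bp. ATAC-seq set its starts apart, with folds within 1 kb of 13 and 14.4 at the upstream start and of 4.95 and 4.87 at the other. No H3K27me3 peak lay within 300 kb of either start, the nearest being 305042 bp away. In the window, H3K27ac also lay at the promoter of the neighbour *Faf1* and at a noncoding start, *9630013D21Rik*, 9.89 and 9.72 kb downstream (folds 7.17 and 7.55).

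*Rb1*, which encodes the retinoblastoma protein that the D-cyclin kinases act on (chr14:73183673-73325822, minus strand), had an active promoter at its main start. H3K4me3 there was 2964 and 2311 bp wide with folds of 33.9 and 21, and H3K27ac was 2268 and 2386 bp wide with folds of 21.5 and 16.2. The promoter coverage in the plot, 5378 and 4687 bp of H3K4me3, also counts a peak of fold 9.73 and 7.89 at an internal noncoding start, 73239786, that coincides with the promoter of *Lpar6*, a receptor gene inside *Rb1*. Without peaks nearer to another protein-coding gene, the coverage was 2964 and 2311 bp. Inside the gene, 1 H3K27ac element about 12 kb from the main start was listed in both replicates at folds of up to 4.53 and 5.15.

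*Ccnd1* encodes cyclin D1 (chr7:144929931-144939925, minus strand), and its promoter was broadly marked at moderate strength. H3K4me3 covered 5519 and 4660 bp of its window of 7729 bp, or 71.4% and 60.3%. The folds of 28.5 and 19.2 were at percentiles 62.8 and 57.0 of all marked genes. H3K27ac was split into 7 peaks in each replicate that covered 4404 and 3004 bp, at percentiles 97.8 and 95.8 of marked genes. Its strongest fold, 9.96 and 6.99, was at percentiles 26.3 and 18.7 only. The strongest H3K27ac peak of the promoter had its summit at −1519 and −1334 bp from the start. Outside promoters, the 4 H3K27ac peaks of replicate 1 had no counterpart in replicate 2, which listed none. H3K27me3 peaks, 4 and 6, were all at the promoter of *Fgf15*, and the nearest was 42049 and 40906 bp from the *Ccnd1* start.

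*Ccnd2* encodes cyclin D2 (chr6:127125162-127152193, minus strand) and was the D cyclin gene with H3K27me3 and without H3K27ac at its promoter. It had no H3K27ac peak in the gene or within 50 kb, and the nearest lay 169844 and 178662 bp from the main group of starts, 127150961 to 127151060. Over the same starts lay H3K27me3, in 13 peaks of replicate 1 from 127148616 to 127156895 and 17 of replicate 2 from 127148698 to 127163994. They covered 4745 and 7161 bp, with folds of up to 5.63 and 6.16. All 13 peaks of replicate 1 and 12 of 17 of replicate 2 had a counterpart, but only 0 and 2 had a −log10 q of at least 5. H3K4me3 covered 4071 and 2492 bp of the same promoter, more than in 95% and 86.2% of marked genes, at the weak folds given above. These are sums over a window of 17.5 kb around 7 starts. As a share of that window, H3K4me3 covered 23.3% and 14.2%. ATAC-seq folds were low as well, 8.52 and 6.39, at percentiles 16.3 and 10.4.

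*Ccnd3* encodes cyclin D3 and is the longest of the D cyclin genes, 94.6 kb (chr17:47505051-47599691, plus strand, 21 transcripts). Of its starts, the downstream group carried the stronger marks. At the first group, 47505051 to 47505241, H3K4me3 folds were 7.90 and 5.35 and H3K27ac folds 4.60 and 4.05. At the second, 47593436 to 47593529, H3K4me3 folds were 17.5 and 16.5 and H3K27ac folds 10.7 and 11.8. The H3K4me3 peak at the second group was 4994 bp wide in replicate 1 and 3039 bp in replicate 2. Over the whole promoter window H3K4me3 covered 6659 and 5222 bp, the most of the 10 genes, but this includes the promoter of *Taf8*, which overlaps the window. Without peaks nearer to another protein-coding gene, *Ccnd3* had 6036 and 4710 bp and the strongest H3K4me3 fold changed from 31.5 and 19.5 to 17.5 and 16.5. The strongest H3K27ac fold then changed from 32.5 and 27.1 to 10.7 and 11.8. With or without those peaks, the coverage overlapped that of *Ccnd1*, 5519 and 4660 bp, so that these genes were not separated beyond the spread between replicates. These are sums over a window of 15.9 kb at *Ccnd3*, and as a share of the window H3K4me3 covered 41.8% and 32.8% there against 71.4% and 60.3% at *Ccnd1*.

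*Ccnd3* also had H3K27ac peaks between its groups of starts. The gene body held 11 and 7 H3K27ac peaks, of which 5 of replicate 1 and 6 of replicate 2 had a counterpart. The numbers with a counterpart were also 5 and 6 at *Cdkn1b*, a gene of 5.11 kb. The strongest, 17 kb after the first start, was 2938 and 2111 bp wide with folds of 12.3 and 8.83, and was open in both replicates. Others in both replicates lay at 6.56 and 6.59 kb (folds 6.94 and 7.24) and at 13 and 13.2 kb (folds 6.01 and 4.63). No H3K27me3 peak lay in the window in either replicate.

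**Figure D4:**
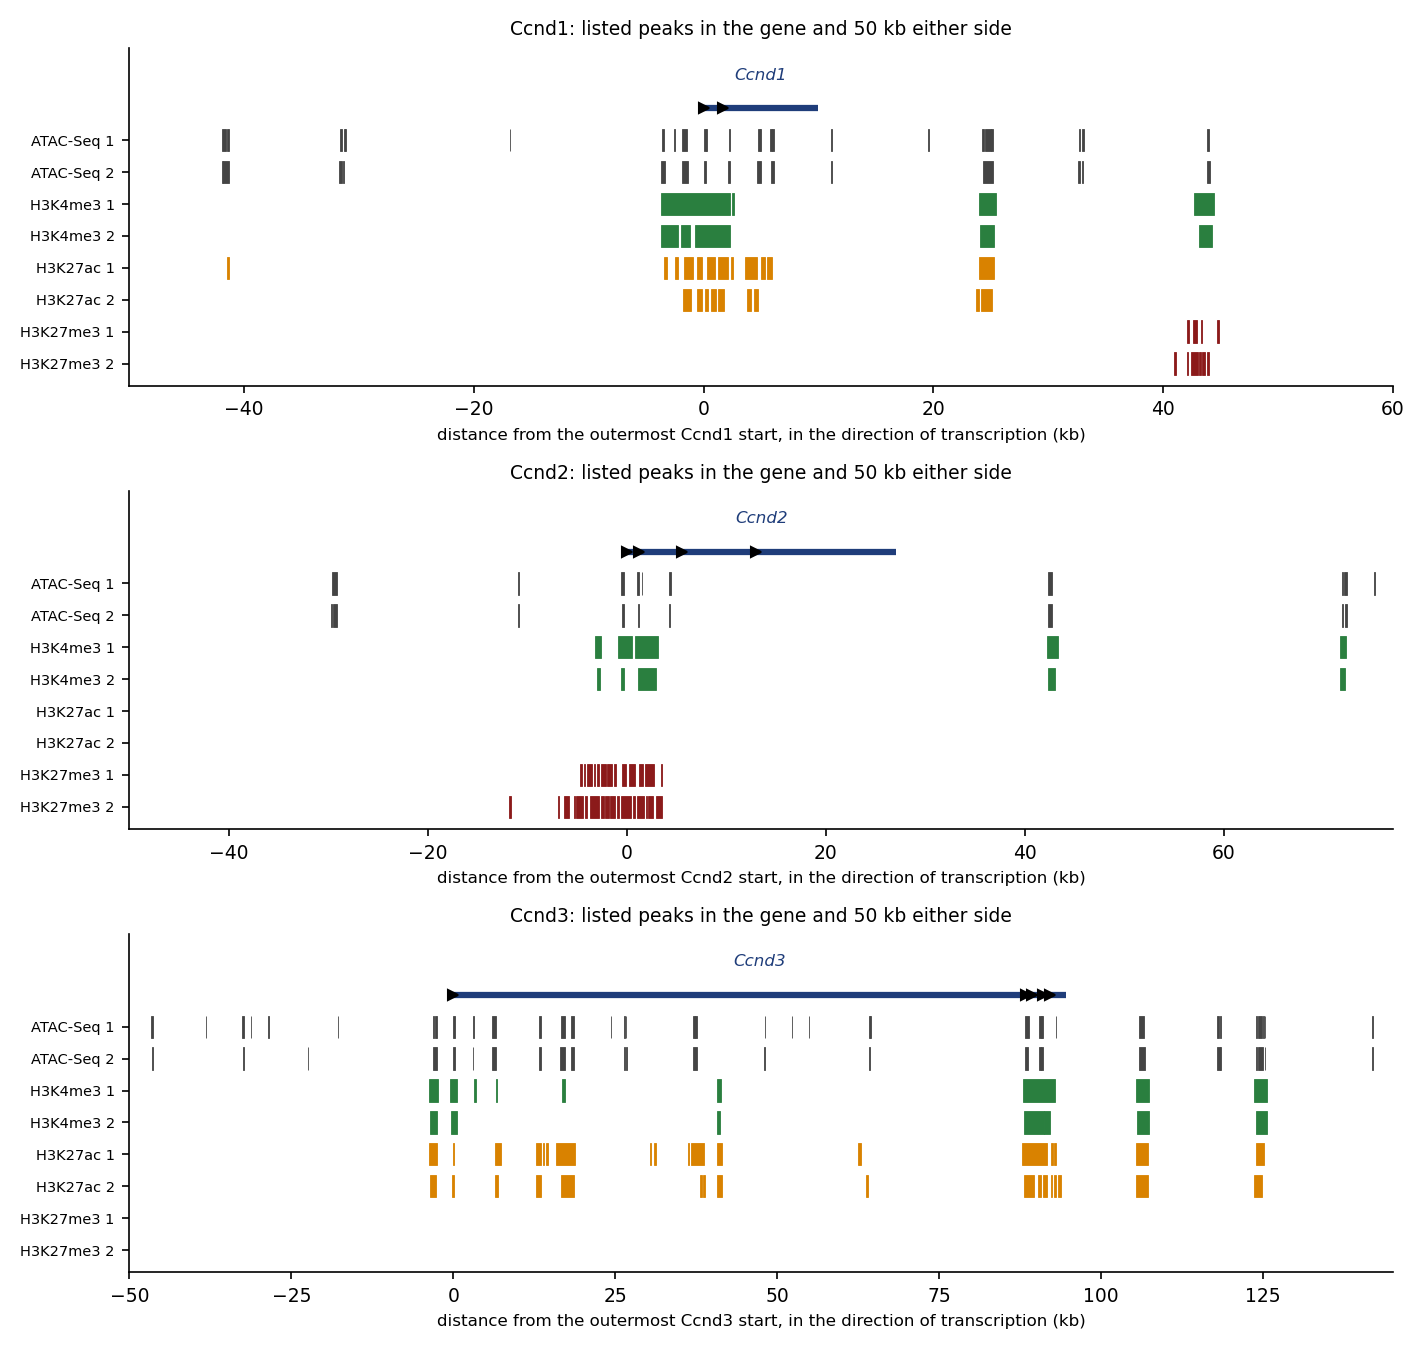
Listed peaks of the 4 features in replicates 1 and 2 (rows) around the D cyclin genes, by distance in kb from the outermost start along the direction of transcription (x axis), with genes as blue bars and their groups of starts as arrowheads. *Ccnd2* has H3K27me3 over its starts and no H3K27ac, whereas *Ccnd1* and *Ccnd3* have H3K27ac in 12 and 9 and in 18 and 17 peaks; the H3K27me3 of the *Ccnd1* window lies at *Fgf15*.

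Taken over the gene and 50 kb either side, *Ccnd3* had 18 and 17 H3K27ac peaks, *Ccnd1* 12 and 9, *Cdkn1b* 8 in each replicate, and *Rb1* 5 and 6. The median over all genes was 2 in each replicate. *Cdkn1a* had 5 and 3, *Cdkn2c* 4 in each, and *Cdkn2a* and *Cdkn2b* 1 in each, not at the same place in the replicates. *Ccnd2* and *Cdkn1c* had 0 in both. Of all genes, 28% had none in either replicate, but only 4.46% combined an H3K4me3 promoter with no H3K27ac in this window, as both of these genes did. For H3K27me3, 5 of the 10 genes had a peak in the window in both replicates, against 13.6% of all genes. For *Cdkn2a* and *Ccnd2* these lay on the gene or beside it, for *Cdkn2b* they were those of *Cdkn2a*, and for *Ccnd1* and *Cdkn1c* nearly all lay at a neighbour. The windows are set by distance, so that a peak in them may belong to another gene. They also grow with the length of the gene, and the numbers of peaks were not scaled to it. *Ccnd3* is 94.6 kb long and *Rb1* 142 kb, against 5.11 kb for *Cdkn1b*. H3K27ac lay in both replicates at the promoters of the neighbours *Gpr19*, *Faf1*, *Rcbtb2*, *Lpar6*, *LTO1*, *Taf8*, *Usp49* and, at 1 place, *Bysl*, *Med20* and *Gm20517*. *Rab44* and *Itm2b* had such a peak in replicate 1 only, and *Tigar*, next to *Ccnd2*, had H3K4me3 and no H3K27ac.

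**Figure D5:**
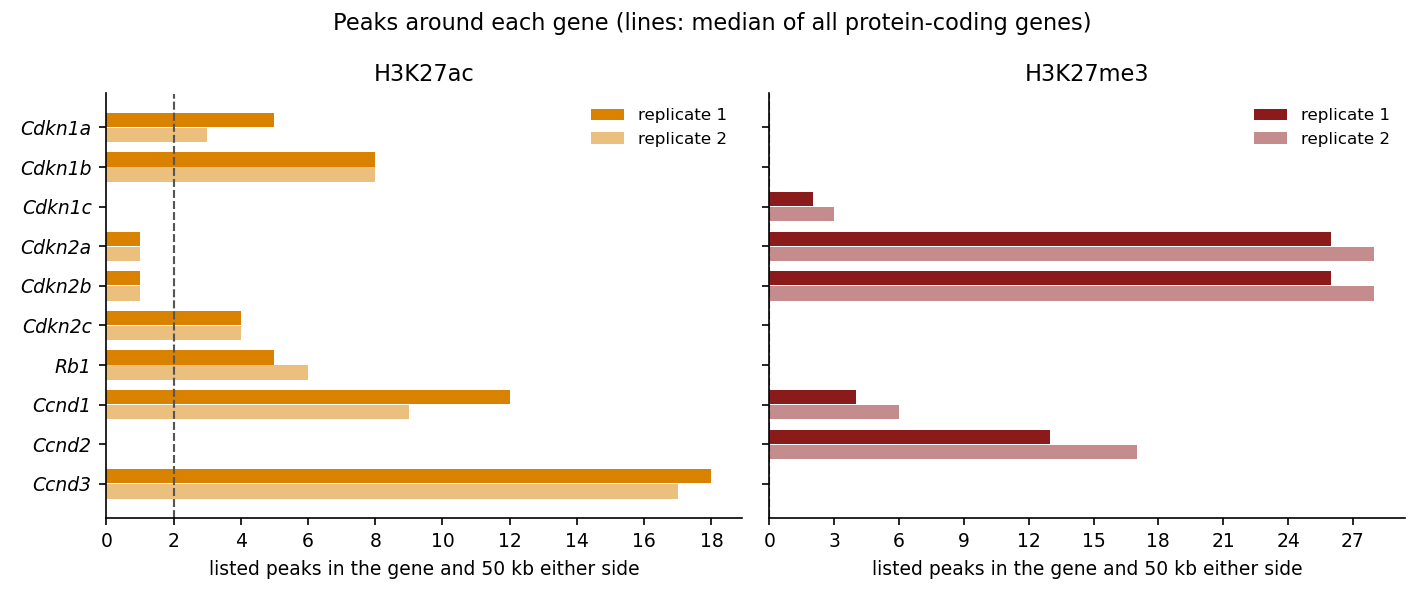
Number of listed H3K27ac and H3K27me3 peaks (x axis) in each gene (y axis) and 50 kb either side, with dark bars for replicate 1, light bars for replicate 2 and lines for the median of all protein-coding genes, which is 2 for H3K27ac and 0 for H3K27me3. *Ccnd3* has the most H3K27ac peaks, 18 and 17, in windows that grow with gene length, and *Cdkn2a* and *Cdkn2b* share 26 and 28 H3K27me3 peaks.

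A list of 24 other genes, among them the kinases *Cdk2*, *Cdk4* and *Cdk6*, the E cyclins, the RB relatives *Rbl1* and *Rbl2*, the E2F factors and the LIN proteins, had ATAC-seq and H3K4me3 at 24 of 24 promoters, against 67.8% and 60.8% of all genes. H3K27ac was at 23 of 24, against 46.6%. The exception was *E2f7*, a repressor of the E2F family, with a peak in replicate 2 only. H3K27me3 was at 0 of 24 in both replicates, against 4.81% of all genes, and *Cdk6*, a partner of the D cyclins, had a peak in replicate 1 only. Thus 22 of 24 were in the active state, against 44.4% of all genes, among them *Cdkn2d*, the remaining INK4 inhibitor. The difference to the 10 genes, of which 6 were active, was not tested, since both lists were chosen with results of these data known.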

How the data were processed

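ATAC-seq and ChIP-seq of sorted MuSCs were used as deposited, as 8 peak lists of 1 library each. Per the submitters' processing notes and the methods, the authors trimmed reads with Trim Galore 0.6.10, aligned them to mm10 with BWA 0.7.17-r1188, removed reads with a mapping quality under 30 and duplicates with SAMtools 1.5 and Sambamba, removed blacklisted regions with bedtools, corrected the Tn5 offset with deepTools 3.5.5 and called peaks with MACS2 2.2.6. The deposited fold is the authors' ratio over local background at the summit, the deposited p-value and q-value are on the −log10 scale, and the deposited score is the authors' rescaled p or q and was not used for a result. Whether the input was used in peak calling is not given in the sources used here. Other samples of the 272 were not analysed here.

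Peaks were compared with GENCODE M21. A promoter was 3 kb either side of any start, overlap was counted from 1 bp, and marked means a peak in both replicates. Starts within 500 bp were grouped. No test between groups was made, as there was 1 condition with 2 replicates per feature. Counts are set beside the share of all 21938 protein-coding genes. The genes, the pathway list and the marker lists were chosen with earlier results of these data known. Alternatives were promoters of 1 kb, stricter q, either replicate, each replicate alone, coding starts only, overlap of 50% of the peak and windows of 25 kb. Leaving out peaks nearer to another gene was chosen after seeing the data. Besides the 10 genes, genes were named by rule where a peak in a window touched their promoter, where a pathway gene lacked a mark or had H3K27me3, and as the 3 genes nearest in promoter coverage to *Cdkn2a*, *Ccnd2* and *Ccnd3*. The noncoding genes were named after their values were seen. Overlap counting was tested on 2000 simulated windows, where 810 of 810 planted overlaps were recovered and 0 were wrongly marked. Python 3.11.15, numpy 2.4.6, pandas 2.3.3 and matplotlib 3.10.9 were used.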

Additional observations from a re-analysis of the deposited data

How the results depend on the processing

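Of 67 recomputed counts, 64 stayed within 1.5 times of the reported count. The 3 that did not all came from the strictest q, a −log10 of 5 or more. There, H3K27me3 promoters went from 2 to 0 genes, genes with both H3K4me3 and H3K27me3 from 2 to 0, and H3K27me3 peaks around the genes from a mean of 49.5 to 3. The stricter limit keeps few peaks of that list by construction. Leaving out replicate 1 or replicate 2 changed no count by more than 1.5 times, and neither did leaving out peaks nearer to another protein-coding gene. Promoters with ATAC-seq and with H3K4me3 were already 10 of 10 in both replicates, so that the choice of replicate could not change these counts. Without replicate 2, H3K27me3 promoters went from 2 to 3 genes, which still counts as within 1.5 times. No paired analysis was possible because no result comes from a test between groups. With 2 replicates and no read numbers, a missing peak is no proof that a mark was absent, and folds of different lists are not on 1 scale.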

Other observations

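By the covered promoter bases in the 8 lists, each taken as a percentile over all genes, the genes most like *Ccnd2* were *Sp9*, *Cyp26b1* and *Meis2*, at Euclidean distances of 5.77, 8.69 and 9.94 percentile points. They share H3K4me3 with H3K27me3 and no H3K27ac. *Sp9* had 3959 and 4285 bp under H3K27me3 peaks and 3177 and 2876 bp under H3K4me3 peaks. The nearest to *Cdkn2a* were *Begain*, *Ppfia3* and *Gtf2ird1*, at larger distances of 20.4, 25.7 and 30.3 points. Each of these 3 had a short H3K27ac stretch in replicate 2, of 224 to 279 bp, as *Cdkn2a* had one of 366 bp, but *Gtf2ird1* also had 270 bp in replicate 1, where *Cdkn2a* had 0. All 3 had far fewer bases under H3K27me3 peaks than *Cdkn2a*, which had 3065 and 4682 bp. *Begain* had 229 and 940 bp, *Ppfia3* 103 and 769 bp, and *Gtf2ird1* 133 and 147 bp. The nearest to *Ccnd3* were *Foxn3*, *Epc1* and *Arid1a*, at 0.30, 0.664 and 0.79 points, with wide H3K4me3 and H3K27ac and no H3K27me3. For *Ccnd3* this likeness includes the peaks at the start of *Taf8*. All these genes were picked by the coverage values themselves, so that the marks they share follow from the choice. A small distance in percentile points can also go with a difference in bases. *Foxn3* had 6134 and 5580 bp under H3K4me3 peaks, against 6659 and 5222 bp at *Ccnd3*.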
